A study of Sus scrofa with 12 samples.

Results

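The genes described here are the 10 members of a set of insulin and mTOR signalling genes in skeletal muscle: INSR, IRS1, PIK3R1, AKT2, TBC1D4, TSC2, MTOR, RPS6KB1, EIF4EBP1 and LEPR. They are named for their place in the chain from the insulin receptor to mTOR, except LEPR, which was added as a known fatness gene of Iberian pigs. The rule that names them uses no measured value, although earlier results of these data were known when it was written. All 10 were among the 25880 genes listed in the count tables, and all 10 were among the 13373 genes that passed the filter on low counts and were tested. RNA was sequenced from longissimus dorsi, the long back muscle, of 12 Iberian pigs, all castrated males fattened in free range on acorns and grass. The High MB group (n = 6) and the Low MB group (n = 6) lay at opposite ends of the breeding values for muscle myoglobin, the red protein that stores oxygen in the fibre. High MB muscle held 2.48 ± 0.0657 mg/g of myoglobin and Low MB muscle 1.39 ± 0.147 mg/g (mean ± SD over 6 pigs each). The groups are therefore extremes of 1 population under the same feeding, not treated and untreated animals, and neither the time from the last meal to slaughter nor insulin in the blood is given in the sources used here.

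Insulin binds its receptor on the muscle fibre, and the receptor passes the signal through docking proteins and a lipid kinase to the kinase AKT, which lets glucose transporters move to the cell surface and glycogen be made. AKT also restrains the TSC complex, and this releases mTOR complex 1, the kinase hub that reads insulin together with amino acids and energy and speeds up protein synthesis through its substrates S6 kinase and the 4E-BPs. Muscle takes up most of the glucose cleared after a meal, and mTOR activity is a main control of its growth. Most of these steps are switched by phosphorylation, which counts of RNA do not measure.

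The 10 genes lay on 7 chromosomes of Sscrofa11.1, so no shared position ties them together. The 250 bases before the RefSeq gene start are shown for MTOR, which had the lowest unadjusted p of the 10 between the groups, for LEPR, which had the widest difference, and for INSR, the receptor at the head of the pathway. Capitals mark matches, on either strand, to GTAAACA (the core of the sites bound by FOXO factors, which insulin signalling keeps out of the nucleus), CACGTG (the E-box read by MYC and TFEB) and GGGCGG (the GC box). MTOR is read on the minus strand of chr6:71412914-71413163, LEPR on the minus strand of chr6:146896153-146896402 and INSR on the plus strand of chr2:71796959-71797208.
MTOR: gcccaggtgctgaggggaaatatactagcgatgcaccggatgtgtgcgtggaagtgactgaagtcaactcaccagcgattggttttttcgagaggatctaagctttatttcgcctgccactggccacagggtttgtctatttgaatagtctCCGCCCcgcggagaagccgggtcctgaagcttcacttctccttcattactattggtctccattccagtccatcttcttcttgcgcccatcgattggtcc
LEPR: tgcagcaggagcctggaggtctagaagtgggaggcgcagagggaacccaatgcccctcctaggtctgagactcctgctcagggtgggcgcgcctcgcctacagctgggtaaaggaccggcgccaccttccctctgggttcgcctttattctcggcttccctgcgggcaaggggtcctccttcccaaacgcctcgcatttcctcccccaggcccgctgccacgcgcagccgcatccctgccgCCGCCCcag
INSR: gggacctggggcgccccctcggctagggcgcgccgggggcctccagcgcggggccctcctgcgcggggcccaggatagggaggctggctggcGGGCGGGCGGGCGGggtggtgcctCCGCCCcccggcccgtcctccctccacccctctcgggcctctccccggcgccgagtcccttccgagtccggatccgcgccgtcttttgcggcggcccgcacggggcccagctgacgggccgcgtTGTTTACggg
GTAAACA was found in 1 of the 10 windows, that of INSR, and in 2.27% of all 19531 windows of the same length. CACGTG was in 0 of the 10 and in 6.39% of all windows, and GGGCGG was in 7 of the 10 and in 45.9% of all windows. The base composition of the members' windows was not uniform. G and C made up 79.2% of the PIK3R1 window, 67.2% of the LEPR window, 51.6% of the MTOR window and 37.2% of the TBC1D4 window, beside a median of 57.6% over all windows. A match is a string of letters in a window and not a measured binding site.

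Most of the members were well expressed in this muscle. Over the 12 pigs, 8 of the 10 had a mean level above percentile 80 of the genes tested, INSR was at percentile 55.0 and LEPR at percentile 6.85. Levels are in CPM, counts scaled to the same library size in every pig after TMM normalization. Levels between genes were compared per length, as CPM per kb of the RefSeq exons. EIF4EBP1, the small repressor of cap-dependent translation, was highest at 114 ± 32.2 CPM per kb (SD, n = 12), a value that rests on only 641 bases of annotated exon. AKT2, the AKT isoform needed for insulin-driven glucose uptake, followed with 20.8 ± 3.56 CPM per kb. TBC1D4, IRS1 and TSC2 had 12.01 ± 2.16, 11.5 ± 3.33 and 10.2 ± 1.06 CPM per kb and were not separated from each other in order: TBC1D4 was above IRS1 in 7 of 12 pigs, and IRS1 above TSC2 in 9 of 12. RPS6KB1 (8.67 ± 0.811 CPM per kb) was below TSC2 in 11 of 12 pigs, and MTOR (6.78 ± 1.09 CPM per kb) was below RPS6KB1 in 11 of 12. PIK3R1 stood at 3.15 ± 0.766, INSR at 1.42 ± 0.338 and LEPR at 0.0684 ± 0.0444 CPM per kb, each below the gene before it in all 12 pigs. The receptors were thus the least abundant transcripts of the set and the substrates and kinases downstream of them the most abundant.

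**Figure D1:**
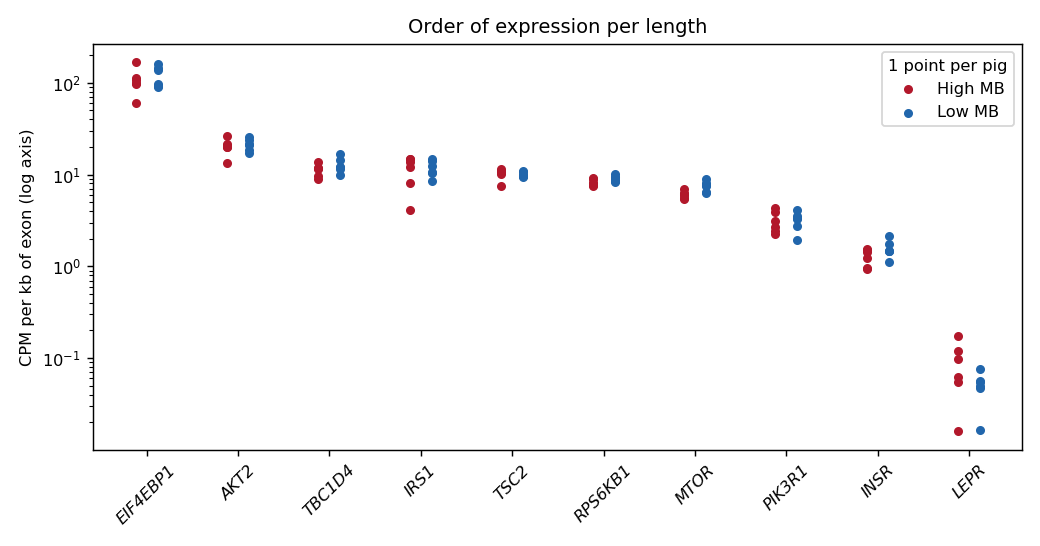
Level of each of the 10 genes in CPM per kb of RefSeq exon (log axis), with 1 point for each of the 12 pigs coloured by group. EIF4EBP1 stands at 114 CPM per kb on average and LEPR at 0.0684, and the points of TBC1D4, IRS1 and TSC2 overlap.

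Sequencing depth was uneven but shared between the groups. Gene counts per pig ran from 38914271 to 91318334, with 5 deep libraries (2 High MB and 3 Low MB) and 7 standard ones (4 High MB and 3 Low MB). High MB pig 2 stood apart: its TMM factor was 1.21 against 0.891 to 1.03 in the other pigs, and its summed muscle fibre markers were the lowest of the 12. Of the muscle fibre markers, ACTA1, CKM, TNNT1 and TNNT3 were abundant in every pig, while MB, the myoglobin gene itself, and the MYH genes were not analysed here. The values are from whole tissue, in which fewer cells of a type and less RNA per cell cannot be told apart. Each library is 1 pig, so the p-values measure the spread between pigs.

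None of the 10 genes passed the test of the High MB against the Low MB pigs. The edgeR quasi-likelihood test with Benjamini-Hochberg adjustment called 0 of 13373 genes (0%) at an adjusted p under 0.10 together with a log2 fold change beyond ±0.58, and its lowest adjusted p was 0.563. DESeq2 called 29 genes, with no member among them and a lowest adjusted p of 0.389 for a member, MTOR. At an unadjusted edgeR p under 0.05 there were 1132 genes (8.46%). Of these, the High MB pigs had 713 at a higher level (5.33%) and 419 at a lower level (3.13%), and with upper-quartile size factors the split was 914 higher and 201 lower. Of the 10 members 1, MTOR, was in that count. The log2 fold change estimate was below 0 in the High MB group for 8 members and above 0 for 2, TSC2 and LEPR, beside 53.1% of all genes below 0 and 46.9% above 0, and PIK3R1 joined the positive side under upper-quartile size factors and when the 10 most abundant genes were left out. With upper-quartile size factors 5727 of the 13373 genes were below 0. The members' median log2 fold change was -0.11, and that of all genes was -0.016, and with upper-quartile size factors these were -0.053 and 0.037. For 6 members the 95% interval of the log2 fold change lay wholly inside ±0.58, as it did for 51.8% of all genes; these were PIK3R1, AKT2, TBC1D4, MTOR, TSC2 and RPS6KB1. The groups' values overlapped for all 10, and 0.426% of all genes had groups that did not overlap.

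**Figure D2:**
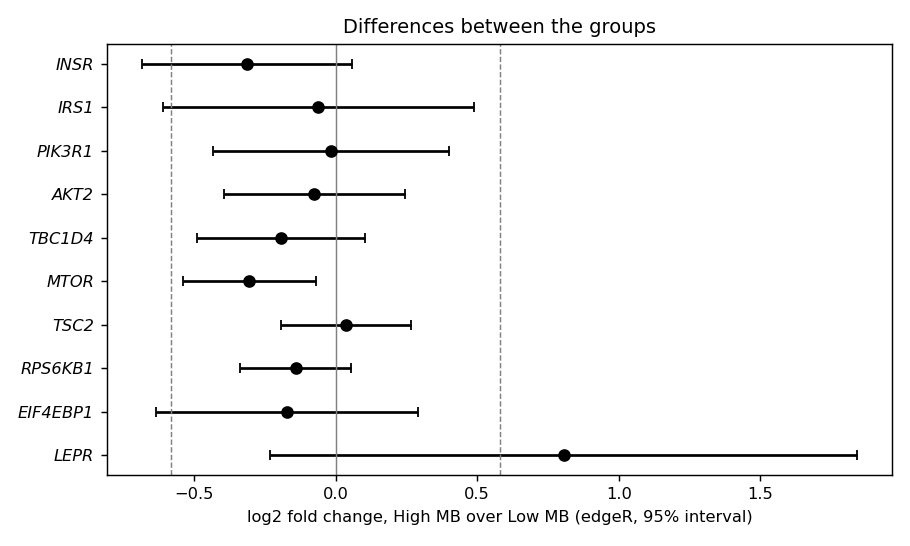
Difference of the High MB from the Low MB pigs for each gene as the edgeR log2 fold change (High MB over Low MB, points) with its 95% interval (bars), n = 6 pigs per group. The interval of MTOR lies below 0, those of the other 9 genes cross 0, and LEPR has the widest interval.

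INSR encodes the insulin receptor (ENSSSCG00000013566, chromosome 2, 71797209 to 71939923, plus strand). Its level was 8.78 CPM in the lowest, 12.6 in the median and 14.4 in the highest pig of the High MB group, and 10.5, 13.9 and 20.3 CPM in the Low MB group. The ranges overlapped between 10.5 and 14.4 CPM, 2 High MB pigs (4 and 5) lay below all Low MB pigs, and 2 Low MB pigs lay above all High MB pigs. High MB over Low MB, the log2 fold change was -0.31 ± 0.17 (SE), with an interval of -0.68 to 0.057 and an adjusted p of 0.623, and the exact two-sided permutation test gave p = 0.123. Low MB pig 4, the highest of the 12, carried part of this difference, since the estimate was -0.19 without it.

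IRS1 encodes the main docking protein that the insulin receptor phosphorylates in muscle (ENSSSCG00000025729, chromosome 15, 128245846 to 128307321, minus strand). The High MB pigs ran from 26.1 CPM through a median of 82.5 to 94.9, and the Low MB pigs from 54.7 through 73.0 to 93.7. High MB pigs 2 and 5 were below all Low MB pigs, 1 High MB pig was above them, and the rest shared the same range. The log2 fold change was -0.061 ± 0.26 (SE), with a wide interval of -0.61 to 0.49 (adjusted p = 0.967; exact permutation p = 0.684). Without High MB pig 2 the estimate was 0.13.

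PIK3R1 encodes the p85 regulatory subunit that brings phosphoinositide 3-kinase to the docking protein (ENSSSCG00000016958, chromosome 16, 46434757 to 46523626, plus strand). The lowest, median and highest values were 38.8, 49.5 and 74.0 CPM in the High MB group and 32.9, 56.6 and 70.5 CPM in the Low MB group. The group means of 53.4 ± 14.4 and 54.0 ± 12.9 CPM (SD, n = 6 each) were nearly the same, with a log2 fold change of -0.016 ± 0.19 (SE) and an interval of -0.43 to 0.40 (adjusted p = 0.991; exact permutation p = 0.931).

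AKT2 lies on the minus strand of chromosome 6 (ENSSSCG00000002989, 48555785 to 48620472). Its values were 112, 170 and 223 CPM in the lowest, median and highest High MB pig and 145, 180 and 215 CPM in the Low MB pigs. High MB pig 2 was the lowest of the 12 and High MB pig 3 the highest, so the Low MB range fell inside that of the High MB group. A log2 fold change of -0.075 ± 0.15 (SE; interval -0.39 to 0.24; adjusted p = 0.915; exact permutation p = 0.606) resulted, and it was 0.043 without High MB pig 2.

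TBC1D4, also called AS160, is the AKT substrate that holds back glucose transporter vesicles until it is phosphorylated (ENSSSCG00000009464, chromosome 11, 47543808 to 47760928, minus strand). The High MB group ran from 73.2 CPM through 93.9 to 111 and the Low MB group from 80.3 CPM through 98.7 to 136. High MB pigs 2 and 5 were below all Low MB pigs, and Low MB pigs 1 and 3 were above all High MB pigs. This gave a log2 fold change of -0.19 ± 0.14 (SE), an interval of -0.49 to 0.10, an adjusted p of 0.709 and an exact permutation p of 0.203. The estimate was -0.10 without Low MB pig 1, -0.11 without High MB pig 2 and -0.042 in the deep libraries.

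TSC2, tuberin, is the part of the TSC complex that switches off the small GTPase RHEB and with it mTOR complex 1 (ENSSSCG00000008040, chromosome 3, 39898924 to 39935579, minus strand). Its end overlaps the plus-strand gene PKD1, which had 3118 to 10458 counts per pig; without known strand settings, reads in the overlap cannot be told apart. The values were 48.5, 69.3 and 74.9 CPM in the lowest, median and highest High MB pig and 60.5, 63.1 and 70.9 CPM in the Low MB pigs. The 6 Low MB pigs were close together, and High MB pig 2 lay below all of them. TSC2 had a log2 fold change of 0.038 ± 0.11 (SE; interval -0.19 to 0.27; adjusted p = 0.944; exact permutation p = 0.842), and it was 0.14 without High MB pig 2 and 0.00073 without High MB pig 6.

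MTOR encodes the kinase itself, the catalytic subunit of both mTOR complexes (ENSSSCG00000003413, chromosome 6, 71286989 to 71412913, minus strand). Expression was 47.0 CPM in the lowest, 53.1 in the median and 61.3 in the highest High MB pig, and 54.9, 66.7 and 78.4 CPM in the Low MB pigs. The ranges overlapped between 54.9 and 61.3 CPM, with 4 High MB pigs below all Low MB pigs and 4 Low MB pigs above all High MB pigs. Group means were 53.0 ± 5.14 and 65.5 ± 8.98 CPM (SD, n = 6 each), a level 1.24-fold higher in the Low MB group. The log2 fold change was -0.30 ± 0.11 (SE), with an interval of -0.54 to -0.071. The unadjusted edgeR p was 0.0143 and the exact two-sided permutation test gave p = 0.0152, but adjusted over all 13373 genes the edgeR p was 0.563, so MTOR is not called. In the 5 deep libraries the estimate was -0.23, and in the 7 standard ones -0.36. Leaving out single pigs gave -0.35 to -0.23, with the smallest size without Low MB pig 4, where the unadjusted p was above 0.05, and leaving out both High MB pig 2 and Low MB pig 4, a pair set aside after the values were seen, gave -0.19 (adjusted p = 0.640). ANGPTL7 lies on the opposite strand within an MTOR intron, and had only 1 to 150 counts per pig, beside 2086 to 4804 for MTOR. Over the 12 pigs, the log2 CPM of MTOR had r = -0.81 with summed endothelial markers and r = -0.77 with summed blood markers, and the part of these cells in the difference was not tested. Most of the blood sum was the globin gene HBB.

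RPS6KB1, the S6 kinase that mTOR complex 1 activates, had the most even expression of the 10 (ENSSSCG00000017670, chromosome 12, 36111584 to 36159287, plus strand). The High MB pigs had 45.7, 49.0 and 56.3 CPM as lowest, median and highest value, and the Low MB pigs 50.5, 55.1 and 61.4 CPM. The SD within groups was 0.12 on the log2 CPM scale, lower than in all but 2.39% of the genes tested, whose median was 0.33. Below all Low MB pigs lay 4 High MB pigs, and above all High MB pigs 3 Low MB pigs. Its log2 fold change was -0.14 ± 0.091 (SE), with an interval of -0.34 to 0.054 and an adjusted p of 0.669, and the exact permutation p was 0.0671. The estimate was -0.22 in the deep libraries and -0.053 in the standard ones. A pseudogene on the opposite strand covers some of its exons, so its counts can hold or lack reads of that copy.

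EIF4EBP1 encodes 4E-BP1, which binds the cap-binding factor eIF4E until mTOR complex 1 phosphorylates it (ENSSSCG00000022301, chromosome 15, 48423001 to 48443373, minus strand). The lowest, median and highest levels were 38.5, 66.4 and 107 CPM in the High MB pigs and 58.01, 75.8 and 103 CPM in the Low MB pigs. High MB pig 2 was below all Low MB pigs and High MB pig 1 above them. The log2 fold change of -0.17 ± 0.22 (SE; interval -0.63 to 0.29; adjusted p = 0.854; exact permutation p = 0.431) was -0.028 without High MB pig 2 and -0.34 without High MB pig 1.

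LEPR encodes the leptin receptor, by which the fat hormone leptin reaches the same kinases (ENSSSCG00000025188, chromosome 6, 146802297 to 146896152, minus strand). It was scarce, with 6 to 56 counts per pig. The High MB pigs had 0.125, 0.6246 and 1.37 CPM as lowest, median and highest value, and the Low MB pigs 0.129, 0.406 and 0.589 CPM. Above all Low MB pigs lay 3 High MB pigs (1, 4 and 5), but High MB pig 2 had the lowest value of the 12. Means were 0.682 ± 0.437 and 0.389 ± 0.149 CPM (SD, n = 6 each). The log2 fold change of 0.80 ± 0.48 (SE) was the only one of the 10 over 0.58 in size, a size reached by 8.29% of all genes. Its interval of -0.23 to 1.84 crossed 0 (adjusted p = 0.653; exact permutation p = 0.301). The estimate was 0.49 without High MB pig 5 and 1.04 without High MB pig 2.

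**Figure D3:**
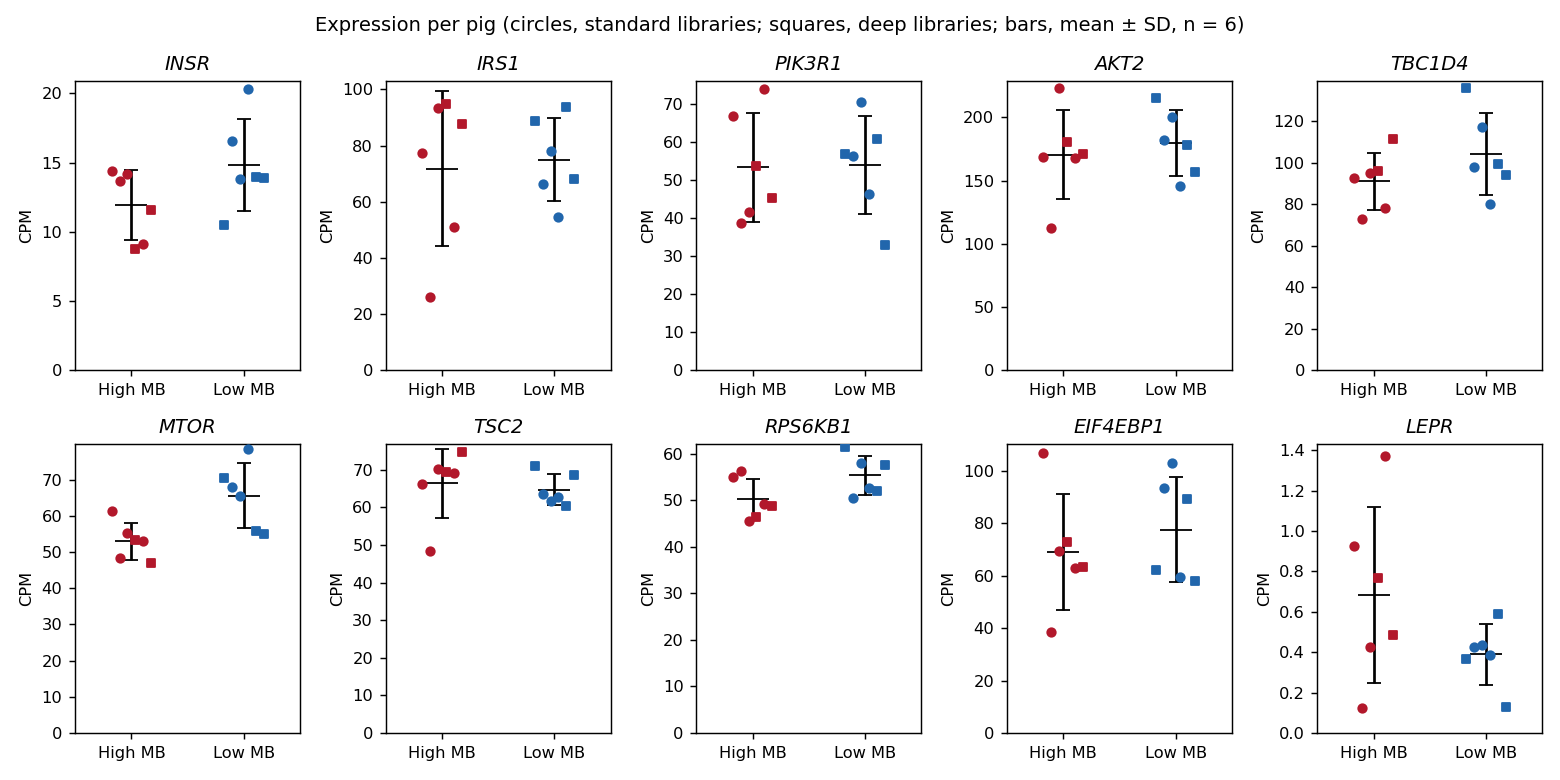
CPM of each of the 10 genes by pig, with 1 point per pig, the High MB and Low MB groups side by side, and the mean ± SD of each group (n = 6). For MTOR 4 High MB pigs sit below all Low MB pigs, and High MB pig 2 is the lowest of the 12 for 6 of the genes.

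The members differed in how much they varied between pigs of a group. On the log2 CPM scale, the SD within groups was 0.12 for RPS6KB1, 0.17 for TSC2 and 0.17 for MTOR, at percentiles 2.39, 11.6 and 11.9 of the genes tested. It was 0.56 for IRS1 and 0.89 for LEPR, at percentiles 78.2 and 93.4. EIF4EBP1 had 0.43, at percentile 65.9. The spread of IRS1 includes High MB pig 2, which was at -1.41 log2 units from the 12-pig mean. High MB pig 2 was the lowest pig of its group for 7 members and the lowest of all 12 for 6, namely IRS1, AKT2, TBC1D4, TSC2, EIF4EBP1 and LEPR. Averaged over the 9 members other than LEPR, it was 0.47 log2 units below the 12-pig mean, and the other 11 pigs were between -0.12 and 0.22 log2 units of it. In the same pig the mean deviation from the 12-pig mean was 1.24 log2 units for the macrophage markers and -0.72 for the muscle fibre markers, and their part in its low values was not tested. INSR and RPS6KB1 were not low in this pig, with deviations of 0.065 and 0.098 log2 units.

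**Figure D4:**
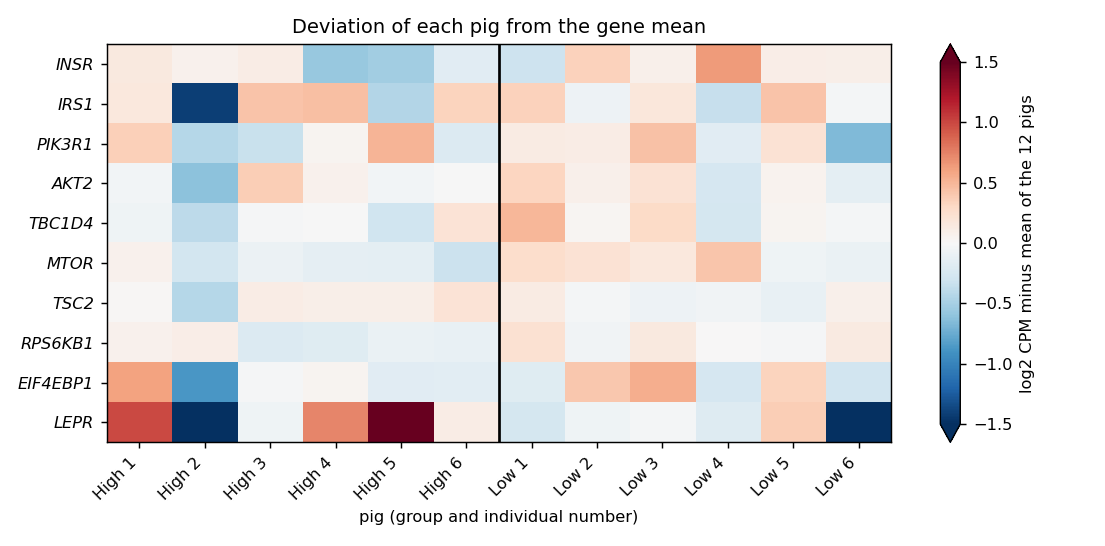
Deviation of each gene in each pig from its mean over the 12 pigs, in log2 CPM, drawn as a colour scale with genes in rows and pigs in columns. The column of High MB pig 2 holds negative values for IRS1 (-1.41), EIF4EBP1 (-0.88), AKT2 (-0.62) and TSC2 (-0.43), and positive ones for INSR and RPS6KB1.

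Across the 12 pigs the members moved together only in part, and these correlations of log2 CPM are a description of 12 libraries that also share their differences in depth and tissue makeup. The median Pearson r of the 45 pairs was 0.28, 34 pairs were positive, and 12 pairs had r over 0.5. IRS1 and AKT2 had the highest r, 0.85 over 12 pigs and 0.63 without High MB pig 2. PIK3R1 and LEPR had r = 0.81, and 0.78 without that pig. AKT2 with TBC1D4 had r = 0.75, and 0.65 without it. The r of 0.75 between IRS1 and TSC2 was 0.23 without High MB pig 2, and only 6 of the 12 pairs with r over 0.5 stayed above it. The lowest r was -0.47, between RPS6KB1 and LEPR.

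The genes whose pattern over the 12 pigs was most like a member's were not other members. For INSR the closest was ATP2B4 (r = 0.94), a calcium pump of the cell membrane. For IRS1 they were ATP2B2 (r = 0.95), MYOM2 (r = 0.95), a protein of the sarcomere's M-band, and CRAT (r = 0.95), the carnitine acetyltransferase of the mitochondrion. For AKT2 the closest was HRC (r = 0.95), a calcium-binding protein of the sarcoplasmic reticulum, and for TBC1D4 it was DST (r = 0.93), with PHKA1, the muscle phosphorylase kinase subunit, at r = 0.92. MTOR was closest to GTPBP1 (r = 0.93) and ZBED5 (r = 0.93), TSC2 to KY (r = 0.95), RPS6KB1 to KDM1B (r = 0.91), EIF4EBP1 to BDH1 (r = 0.92), PIK3R1 to HOXA7 (r = 0.91) and LEPR to TSPAN4 (r = 0.88). Each r is among the 3 highest over all genes tested for that member, in 12 pigs, and is a description only. Without High MB pig 2, r with IRS1 was 0.89 for ATP2B2, 0.82 for MYOM2 and 0.81 for CRAT. It was then 0.89 for AKT2 with HRC and 0.84 for TSC2 with KY, and 0.95 for both INSR with ATP2B4 and MTOR with GTPBP1.

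Within the groups, no member passed the test of a slope on myoglobin content. The slope of log2 expression per 0.1 mg/g of myoglobin, with the group as a term, was above 0 for 7 members and below 0 for 3 (INSR, IRS1 and TSC2), beside 49.9% above 0 over all genes. None reached an unadjusted edgeR p under 0.05, which 3.85% of all genes did (1.47% upward), and 0 genes (0%) had an adjusted p under 0.10. PIK3R1 had the lowest p of the 10, with a slope of 0.15 ± 0.088 log2 units per 0.1 mg/g (SE; adjusted p = 0.9997). This slope ran from 0.089 without Low MB pig 6 to 0.24 without Low MB pig 2, with an unadjusted p under 0.05 without Low MB pig 2 or without Low MB pig 4 and no adjusted p below 0.741. For MTOR the slope was 0.074 ± 0.051 (interval -0.036 to 0.18), opposite in sign to the group estimate, in which the pigs with more myoglobin had less MTOR, and it ran from 0.048 without Low MB pig 4 to 0.12 without Low MB pig 2. LEPR had a slope of 0.26 ± 0.24 and the widest interval, -0.26 to 0.79, and it ran from 0.13 without Low MB pig 6 to 0.42 without Low MB pig 2.

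The rest of the pathway was read from 9 lists of 109 symbols, of which 98 genes were tested. At an unadjusted edgeR p under 0.05, the High MB pigs had 3 at a higher and 2 at a lower level (5.10%, beside 8.46% of all genes), no adjusted p was below 0.563, and 0 had groups that did not overlap. Estimates were below 0 for 65 of the 98, beside 53.1% of all genes, with a median log2 fold change of -0.068. With upper-quartile size factors 53 of the 98 were below 0, beside 5727 of all 13373 genes, and the median was -0.012. Under that scaling 4 genes of the lists were higher and 1 lower at an unadjusted p under 0.05. For single genes of these lists, the adjusted p is that of edgeR over all 13373 genes.

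Among the receptor-proximal kinases and docking proteins, IRS2, the second docking protein, had a log2 fold change of -0.50 ± 0.20 (SE; unadjusted edgeR p = 0.0261, adjusted 0.563; exact permutation p = 0.0649), from 14.6 ± 3.92 CPM in the Low MB group to 10.3 ± 2.36 CPM in the High MB group (SD). Of the 12 brakes on the insulin signal, such as phosphatases and SOCS proteins, 0 reached that p, 6 estimates were above 0 and 6 below, and the lowest p belonged to ENPP1 (log2 fold change 0.39, adjusted p = 0.627) and PTPN11 (-0.18, adjusted p = 0.652).

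Glucose transport and glycogen effectors had estimates below 0 for 10 of 11 genes under all 4 scalings, with a median log2 fold change of -0.14, and of -0.087 with upper-quartile size factors. Of all genes, 53.1% were below 0, and 5727 of 13373 with upper-quartile size factors. RAB13, a small GTPase in the traffic of glucose transporter vesicles, was the exception, at 0.61 ± 0.25 (SE; unadjusted edgeR p = 0.0278, adjusted 0.563; exact permutation p = 0.0390), with 3.83 ± 1.25 CPM in the High MB group and 2.50 ± 0.794 CPM in the Low MB group (SD). The transporter gene SLC2A4 itself was at -0.16 (adjusted p = 0.885), the glycogen synthase GYS1 at -0.12 (adjusted p = 0.865) and the glycogen synthase kinase GSK3B at -0.22 (adjusted p = 0.606). FOXO1, FOXO3 and FOXO4 were at -0.47, -0.29 and -0.26 (adjusted p = 0.640, 0.695 and 0.653).

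The partners of MTOR in its complexes gave no call, with 0 of 7 at an unadjusted edgeR p under 0.05. The estimate was -0.084 for RPTOR, the scaffold of complex 1 (adjusted p = 0.856), and -0.13 for MLST8, which is in both complexes (adjusted p = 0.810). For the complex 2 subunits RICTOR and MAPKAP1 it was -0.51 ± 0.25 (SE; adjusted p = 0.597) and -0.16 ± 0.098 (SE; adjusted p = 0.656). Among the inputs through TSC, RHEB and AMPK, PRKAG1, a regulatory subunit of the energy sensor AMPK, was at 0.40 ± 0.15 (SE; unadjusted edgeR p = 0.0205, adjusted 0.563; exact permutation p = 0.0433), with 39.5 ± 8.07 CPM against 30.0 ± 5.47 CPM (SD), and its slope on myoglobin content within groups was 0.15 log2 units per 0.1 mg/g. DDIT4L, an inhibitor of mTOR complex 1, was at -0.39 (adjusted p = 0.647). Of the 23 amino acid sensors and Rag GTPase genes 0 had an unadjusted p under 0.05 between the groups, and the lowest p were those of CASTOR1 (log2 fold change 0.41, adjusted p = 0.593) and SESN2 (-0.73, adjusted p = 0.615), where 1 Low MB pig reached 16.8 CPM. For the slope on myoglobin content, 5 of the 98 list genes (5.10%, beside 3.85% of all genes) had an unadjusted edgeR p under 0.05, and no adjusted p was below 0.9997. Beside PRKAG1 these were the amino acid sensors SESN2 and SESN1, the Rag GTPase RRAGD and the receptor IGF2R, with slopes of 0.44, 0.22, -0.14 and 0.27 log2 units per 0.1 mg/g. The slope of SESN2 was opposite in sign to its group estimate.

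Downstream of mTOR complex 1, estimates were below 0 for 10 of 11 genes of translation control and its other targets, and for 9 of 11 with upper-quartile size factors, under which 0 of the 11 had an unadjusted p under 0.05. Of all genes, 53.1% were below 0, and 5727 of 13373 with upper-quartile size factors. The signs of genes measured in the same pigs are not independent. LARP1, which binds the mRNAs of ribosomal proteins, was at -0.27 ± 0.11 (SE; unadjusted edgeR p = 0.0255, adjusted 0.563; exact permutation p = 0.00649), with 40.6 to 60.4 CPM in the High MB pigs and 58.9 to 68.5 CPM in the Low MB pigs. RPS6KB2, the second S6 kinase gene, was at -0.19 (adjusted p = 0.687). PDCD4, a translation repressor, was the gene above 0, at 0.088 (adjusted p = 0.812).

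Leptin itself, LEP, had a log2 fold change of 1.06 ± 0.60 (SE; adjusted p = 0.634; exact permutation p = 0.0649), with 2 to 321 counts per pig. PTPRE, a phosphatase that restrains leptin signalling, was at 0.52 ± 0.26 (SE; adjusted p = 0.597), and 0 of the 8 leptin genes had an unadjusted p under 0.05. Of the ligand axis, IGF1 and IGFBP5 were at 0.36 ± 0.52 and 0.33 ± 0.50 (SE; adjusted p = 0.875 and 0.882), and INS, which muscle is not known to express, did not pass the filter.

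**Figure D5:**
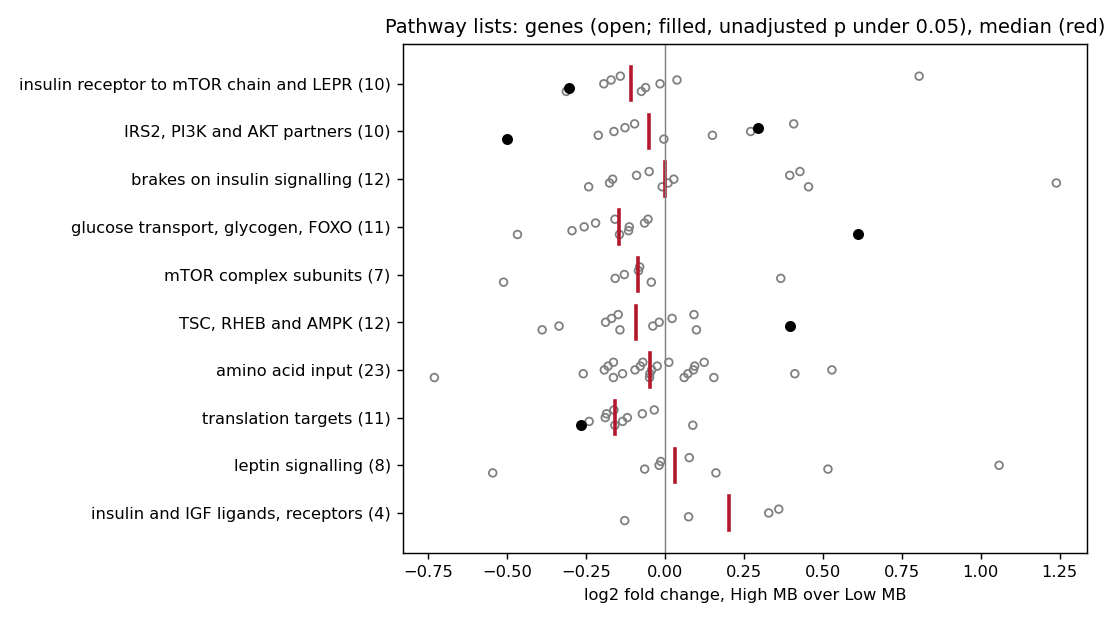
Log2 fold change (High MB over Low MB, edgeR) of every tested gene of the 10 members and the 9 further pathway lists, with 1 point per gene and the median of each list marked. Nearly all points lie within 1 log2 unit of 0, and the medians of the glucose effectors and of the translation targets are -0.14 and -0.16.

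Summed macrophage and blood markers were higher in the High MB pigs by the exact permutation test, those of other cell types did not pass it, no single marker gene was called, and their part in the members' values was not tested. The 6 macrophage markers all had estimates above 0 in the High MB group, 5 of them at an unadjusted edgeR p under 0.05, and their summed level was 50.05 to 105 CPM in the High MB pigs against 25.4 to 56.8 CPM in the Low MB pigs (exact permutation p = 0.0216). Beside these and the marker counts below, 46.9% of all genes had estimates above 0, and 7646 of 13373 with upper-quartile size factors. Higher in the High MB group at an unadjusted edgeR p under 0.05 were 5.33% of all genes. Blood markers summed to 76.4 to 151 CPM against 42.6 to 90.0 CPM (exact permutation p = 0.00866), with 4 of 4 estimates above 0. Fibroblast markers summed to 630 to 1118 CPM against 326 to 828 CPM (exact permutation p = 0.0519), with 6 of 6 above 0, and adipocyte markers to 323 to 624 CPM against 324 to 539 CPM (exact permutation p = 0.123), also with 6 of 6 above 0. Of the fibroblast markers 3 of 6, and of the adipocyte markers 2 of 6 (FABP4 and CIDEC), had an unadjusted edgeR p under 0.05, and the median log2 fold change was 0.65 and 0.87. PLIN4, the most abundant adipocyte marker, was at 0.088 and makes up most of that sum. Muscle fibre markers, of which 4 of 9 had a row, summed to 33291 to 81633 CPM against 58139 to 110578 CPM (exact permutation p = 0.491). TNNT1, the slow-fibre troponin T in that list, had 1715 to 2622 CPM in the High MB pigs and 973 to 1780 CPM in the Low MB pigs, a log2 fold change of 0.56 ± 0.18 (SE; unadjusted edgeR p = 0.00833, adjusted 0.563; exact permutation p = 0.00649). Endothelial markers summed to 122 to 167 CPM against 76.2 to 183 CPM (exact permutation p = 0.147), with 5 of 5 above 0, and pericyte and smooth muscle markers to 164 to 651 CPM against 134 to 361 CPM (exact permutation p = 0.342), also with 5 of 5 above 0. All of these signs were the same under the other scalings tried, while the muscle fibre estimates were below 0 for 3 of 4 genes and for 2 of 4 with upper-quartile size factors.

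Of the members, MTOR had the lowest r with any of these sums, that with endothelial markers. Beside the values for endothelial and blood markers, r over the 12 pigs was -0.66 with fibroblast, -0.64 with pericyte and smooth muscle and -0.60 with macrophage markers, and r = 0.064 with muscle fibre markers. Without High MB pig 2 the values were -0.86 for pericyte and smooth muscle, -0.84 for blood, -0.80 for endothelial, -0.68 for fibroblast, -0.50 for macrophage and -0.46 for muscle fibre markers. TBC1D4 and AKT2 had r = -0.79 and -0.70 with macrophage markers, and -0.71 and -0.49 without High MB pig 2, the highest of its group in these markers and the lowest of the 12 pigs for both genes. RPS6KB1 had r = -0.67 with fibroblast markers and INSR had r = -0.64 with blood markers. IRS1 had r = 0.83 with muscle fibre markers and 0.47 with adipocyte markers over the 12 pigs, and 0.49 and 0.80 without High MB pig 2. LEPR had r = 0.19 with adipocyte markers.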

How the data were processed

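Longissimus dorsi RNA of 12 Iberian pigs (6 High MB and 6 Low MB, grouped by the labels' group field, 1 library each) was analysed. Trimming was with TrimGalore and mapping to Sscrofa11.1 with hisat2, and the authors deposited raw counts per gene from htseq-count, with no normalization. Tool versions, the annotation release, the strandedness and the treatment of overlaps in counting are not given in the sources used here, so overlapping genes can share or lose reads. The summary lines of htseq-count were left out. Gene counts were 47.0% to 48.2% of the sum of gene counts, reads in no annotated gene and ambiguous reads. Reads in no annotated gene were 50.9% to 52.0% of that sum. Gene counts were 38914271 to 91318334 per pig, and precision is limited by the spread between pigs and by the depth of each library. The 12 tables by transcript were not used here. No replicate looked like a library deposited again.

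Genes were filtered with filterByExpr, normalized by TMM and tested with the quasi-likelihood test of edgeR 4.0.16 in R 4.3.3 (High MB against Low MB, no covariate, Benjamini-Hochberg over 13373 genes). A gene was called at an adjusted p under 0.10 together with a log2 fold change beyond ±0.58. DESeq2 1.42.0, the study's tool, was an alternative. Standard errors came from the test statistic. CPM used TMM, and log2 CPM a prior count of 2. Exact two-sided permutation tests ran over 924 regroupings, with 0.00216 as the smallest p they can give. The slope on myoglobin content was fitted within groups. The fits were tested on simulated data. The alternatives were other size factors, filters, thresholds and dispersions, depth as a covariate or within depth classes, a block, and each pig left out. Removing High MB pig 2 and Low MB pig 4 together was chosen after seeing the data. Gene symbols, positions, exon lengths and promoter bases came from RefSeq on Sscrofa11.1, and all 10 members matched.

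The rule for the members uses no measured value, but members and lists were chosen with earlier results of these data known. Genes named beyond the members are, from each pathway list, those at an unadjusted p under 0.05 and, where fewer than 2, the 2 of lowest p, and from the 3 genes most like each member. SLC2A4, GYS1, the FOXO genes, RPTOR, MLST8, PDCD4, RRAGD, SESN1, IGF2R and TNNT1 were named in addition after their values were seen. A gene that this rule names is not reported here.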

Additional observations from a re-analysis of the deposited data

Results flagged for a closer look

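In each group of 6 pigs, the gap of the lowest or highest pig to the next was compared with the range of the group for the log2 CPM of every member. Of the 20 sets so tested, 2 had a pig that stood apart, and chance gives about 1 in 20. TSC2 in High MB pig 2 was one, with a gap of 0.715 of the range of its group, at 48.5 CPM against a group median of 69.3 CPM. LEPR in Low MB pig 6 was the other, with a gap of 0.671 of the range, at 0.129 CPM against a group median of 0.406 CPM.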

How the results depend on the processing

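Of 239 alternative estimates of the members' group differences, 221 kept their direction and none crossed the threshold (lowest adjusted p 0.363, edgeR), and the other 18 changed sign; of 169 slope estimates, 149 kept direction and 20 changed sign (lowest adjusted p 0.741). DESeq2 called 29 genes and the deep libraries alone called 1, with 454 genes at an unadjusted p under 0.05 in the deep libraries instead of 1132. PIK3R1 became 0.044 with upper-quartile size factors, 0.0028 without the 10 most abundant genes, 0.0083 with at least 10 counts in every pig, 0.016 in the deep libraries and 0.048 without High MB pig 2 and Low MB pig 4, and IRS1 became 0.17 in the deep libraries and 0.061 without that pair. By depth class (deep, then standard), estimates were -0.29 and -0.39 for INSR, -0.020 and -0.058 for AKT2, 0.16 and 0.028 for TSC2, -0.0020 and -0.29 for EIF4EBP1, and 0.81 and 0.78 for LEPR. With each pig left out, the log2 fold change ran from -0.13 to 0.090 for PIK3R1, -0.16 to 0.13 for IRS1 and -0.17 to 0.043 for AKT2. The slope ran from -0.11 to 0.0074 for INSR, -0.058 to 0.035 for IRS1, -0.0040 to 0.066 for AKT2, -0.033 to 0.052 for TBC1D4 and -0.075 to 0.12 for EIF4EBP1, and from 303 genes (without Low MB pig 3) to 897 (without Low MB pig 2) had an unadjusted slope p under 0.05, instead of 515. The IRS1 slope became 0.042 with depth as a covariate and 0.26 per 0.1 of breeding value. An unadjusted p under 0.05 was reached by INSR without Low MB pig 1 (-0.40) and with depth as a covariate (-0.37), and by LEPR without High MB pig 2 (1.04) and without the pair (1.05). LEPR could not be fitted with at least 10 counts in every pig. The cause of these shifts was not tested.

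Pigs of the 2 groups share individual numbers, but same-numbered pigs had correlations of -0.21 to 0.14 and no pig correlated best with its own number. These values give no sign that the numbers pair the pigs, although a weak shared effect could be missed by this check. With the number as a replicate block, the counts were 0 genes called and 957 genes at an unadjusted p under 0.05, MTOR was at -0.30 (adjusted p = 0.684, edgeR), and the slope became -0.43 for IRS1 (unadjusted p under 0.05, adjusted p = 0.893, edgeR), -0.17 for AKT2, -0.018 for TBC1D4, -0.0097 for MTOR, -0.21 for EIF4EBP1 and -0.13 for LEPR.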
